A study of Mus musculus with 18 samples.

Results

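Voltage-gated sodium and calcium channel subunit genes were followed through the RNA-Seq libraries of the ventral dentate gyrus (vDG). The members were all genes in the count files whose symbols begin with Cacna, Cacnb or Cacng, or with Scn, a number and a or b. They numbered 40 of 34620 genes listed, 14 for sodium and 26 for calcium channels, and 36 of them were among the 17421 genes with enough counts to be tested. The granule cell layer was microdissected from adult male Swiss Webster mice, an outbred strain, at 8 to 12 weeks of age, and 2 libraries each came from WT, F1 and F2 males. WT males belonged to a separate wild-type lineage bred in parallel. F1 males were genetically WT offspring whose parents were heterozygous for the serotonin 1A receptor gene (5HT1A-/+ mothers), and F2 males were offspring of F1 females and WT males, so that the 5HT1A-/+ genotype was that of a grandmother. The males of all groups carried the WT receptor gene. Animals came from at least 3 litters, and how many animals contributed to a library is not given in the sources used here. The spread between 2 libraries may therefore be partly technical. The comparisons ask which transcripts differ in males with a receptor-deficient mother (F1) or grandmother (F2).

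Voltage-gated channels open when the membrane depolarizes. Sodium channels consist of a large pore-forming alpha subunit (Scn genes ending in a) and small beta subunits (Scn genes ending in b) that adjust gating and placement at the membrane, and they carry the rising phase of the action potential. Calcium channels have a pore-forming alpha1 subunit (Cacna1 genes), which in the high-voltage-activated Cav1 and Cav2 classes assembles with a cytoplasmic beta and an extracellular alpha2delta subunit. Cav1 channels carry long-lasting calcium currents linked to gene regulation, Cav2 channels drive transmitter release, and Cav3 channels open at low voltage and support burst firing. Several gamma subunits (Cacng genes) act chiefly as transmembrane AMPA receptor regulatory proteins, TARPs, which bring glutamate receptors to the synapse. Dentate granule cells are sparsely firing neurons that express members of most of these classes.

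The depth was 26358165 to 33727936 reads on genes per library. Reads aligned uniquely but outside annotated exons made up 17.7% and 20.7% of unique reads in WT, 13.8% and 12.2% in F1, and 13.9% and 17.4% in F2. The granule cell marker Prox1 was at 228 to 345 CPM (read counts scaled to library size with the TMM method) and Calb1 at 265 to 392 CPM. None of 6 granule cell markers passed the test in either generation, and their summed level was 816 and 834 CPM in WT, 722 and 903 in F1, and 1035 and 983 in F2. In F1, 3 of the 6 had positive log2 fold changes, and in F2 all 6, with a median of 0.41. Both F2 libraries lay above both WT libraries for 4 of 6. In F2, 5 of 6 had an unadjusted p under 0.05 by edgeR's exact test, as had 32.4% of all tested genes. Of 8 oligodendrocyte markers, 3 were called higher in F1 and 2 in F2 (q under 0.01, as below), with sums of 1098 and 1994 CPM in WT, 2975 and 2239 in F1, and 1534 and 2897 in F2. All 8 had positive log2 fold changes in both generations, and for all 8 both F1 libraries lay above both WT libraries, as for 2 of 8 in F2. Libraries lay wholly above or below WT for 60.4% of all tested genes in F1 and 63% in F2. Of 5 astrocyte markers, all positive in both generations, 1 was called higher in F1 and 3 in F2, with sums of 794 and 890 CPM in WT, 947 and 1275 in F1, and 1391 and 1087 in F2. Called higher in F1 and F2 respectively were 2 and 1 of 3 oligodendrocyte precursor markers, 0 and 3 of 5 microglia, 1 and 1 of 4 endothelial, 0 and 0 of 4 mural, 1 and 2 of 6 interneuron, 1 and 0 of 6 mossy cell and CA field, 0 and 0 of 5 immature neuron, and 0 and 0 of 2 tested choroid plexus markers. None of these lists had a gene called lower. Of all tested genes, 3.77% were called higher in F1 and 3.86% in F2, and 8.54% and 8.1% lower. The defining choroid plexus gene Ttr was at no more than 1.1 CPM. The part of these cells in the channel results was not tested, and in bulk tissue fewer cells of a type and less RNA per cell cannot be told apart.

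Levels of different genes were compared per exon length, as RPKM, the CPM divided by the kilobases of annotated exon. Scn8a (Nav1.6, the main channel of the axon initial segment) and Scn2a1 (Nav1.2) dominated the sodium pores, with 44.4% and 35.6% of the summed RPKM of the sodium alpha genes, followed by Scn1a (Nav1.1) with 10.2% and Scn3a (Nav1.3) with 8.41%. Scn9a and Scn7a stayed under 1 RPKM each. The muscle gene Scn4a and the sensory neuron genes Scn10a and Scn11a had at most 6 counts in any library and were not tested. Of the beta subunits, Scn3b was at 78.9 RPKM, Scn2b at 54.6 RPKM and Scn4b at 2.20 RPKM.

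Cacna1e (Cav2.3, R-type) and Cacna1h (Cav3.2, T-type) had the highest levels of the calcium pores at 21 and 22 RPKM over all libraries, and their order differed by group. Cacna1h was at 30.8 ± 6.89 RPKM (SD, n = 2) and Cacna1e at 22.5 ± 0.445 RPKM in WT, against 18 ± 0.594 and 21.9 ± 3.53 RPKM in F2, without overlap of the libraries, while they overlapped in F1 (17.4 ± 0.975 and 18.4 ± 2.82 RPKM). Cacna1a (Cav2.1, P/Q-type) at 11.8 RPKM, Cacna1b (Cav2.2, N-type) at 10.8 RPKM and Cacna1c (Cav1.2, L-type) at 9.54 RPKM came next and lay close together. Lower were Cacna1d (Cav1.3, L-type) at 6.76 RPKM, Cacna1i (Cav3.3) at 6.04 RPKM and Cacna1g (Cav3.1) at 5.28 RPKM. The retinal gene Cacna1f and the skeletal muscle gene Cacna1s were at no more than 18 counts in any library. Of the accessory genes, Cacnb3 carried 64% of the beta RPKM, and Cacna2d1 and Cacna2d3 carried 56.4% and 39.2% of the alpha2delta RPKM. Cacng8, Cacng7 and Cacng3 led the gamma genes at 81.8, 53.2 and 47.6 RPKM. The annotated Cacng8 model holds 663 bases of exon only, so its level per length is uncertain. The skeletal muscle subunit Cacng1 had 0 counts in WT and F1 and 4 and 3 counts in F2.

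**Figure D1:**
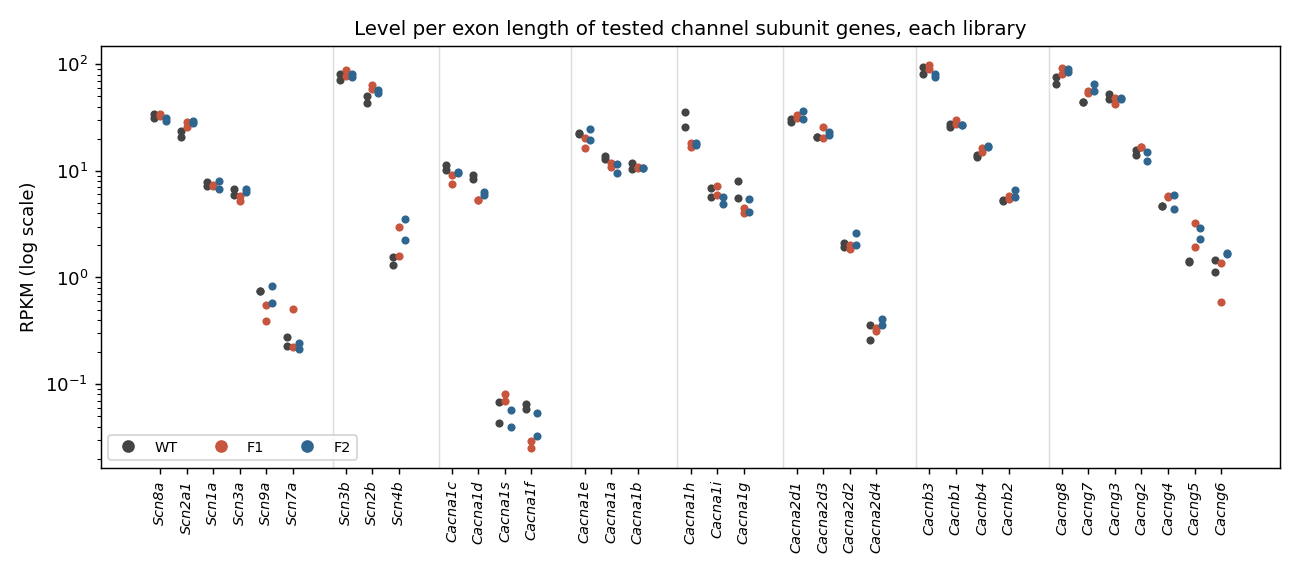
Level per exon length (RPKM, log scale) of tested channel subunit genes in each library, ordered within subfamily by mean level. Points are single libraries of WT, F1 and F2. Cacnb3, with a mean of 86.9 RPKM, lies highest of those shown, and Cacna1f and Cacna1s lie lowest.

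In F1, 5 of the 36 tested members (13.9%) differed from WT at a q value (Benjamini-Hochberg adjusted p) under 0.01 by edgeR's exact test, 2 higher and 3 lower. Of all tested genes 12.3% were called, 3.77% higher and 8.54% lower. In F2, 5 members differed from WT, 3 higher and 2 lower, where 12% of all genes were called, 3.86% higher and 8.1% lower. The members were thus called about as often as any gene, and their number is no result about channels as a class. Every pore gene called was a calcium alpha1 gene with lower counts than WT (Cacna1d, Cacna1g and Cacna1h), and every accessory gene called had higher counts than WT, among them Cacng5, Cacng7 and Scn4b. None of the 7 tested sodium alpha genes was called. The same 2 WT libraries serve as reference for F1 and F2, so the 2 comparisons are not independent.

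Over all tested genes of these classes, the signs of calcium alpha1 and accessory genes differed as well, with no test of that difference. In F1, 8 of the 10 tested alpha1 genes had negative log2 fold changes, with a median of -0.33, and in F2 all 10 were negative, with a median of -0.30. Of the 19 tested accessory genes, 16 were positive in F1 (median 0.16) and 16 in F2 (median 0.20). In the main test the median over all tested genes was 0.01 in F1 and 0 in F2, and 50.9% and 50% were positive. Sodium alpha genes were divided, 4 of 7 positive in F1 and 2 of 7 in F2. The medians of the alpha1 and accessory genes kept their signs under every alternative tried, with ranges for alpha1 of -0.48 to -0.19 (F1) and -0.41 to -0.15 (F2), and for the accessory genes of 0.13 to 0.21 (F1) and 0.16 to 0.29 (F2). With an offset for GC content and exon length, the median over all tested genes itself rose to 0.089 in F1 and 0.064 in F2. The accessory medians were 0.19 and 0.22 there, and the alpha1 medians -0.27 and -0.25. Single libraries changed the counts: 8 of 10 alpha1 genes were negative in F2 without WT replicate 1 or without F2 replicate 2, and 13 of 19 accessory genes were positive in F2 without F2 replicate 2.

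In summed reads the calcium pores had 1250 and 1065 CPM in WT, 848 and 895 CPM in F1, and 933 and 915 CPM in F2, and neither F1 nor F2 overlapped WT. Cav3 gave the largest step of the 3 classes, from 498 and 365 CPM in WT to 292 and 263 CPM in F1 and 261 and 291 CPM in F2. The Cav1 sums were 186 and 168 CPM in WT, 116 and 131 CPM in F1, and 147 and 141 CPM in F2. Cav2 had 565 and 532 CPM in WT, 440 and 502 CPM in F1, and 526 and 483 CPM in F2. The accessory genes together had 2167 and 2019 CPM in WT, 2377 and 2458 CPM in F1, and 2211 and 2319 CPM in F2. All members summed to 4156 and 3835 CPM in WT, 3985 and 4153 CPM in F1, and 3913 and 4021 CPM in F2, so that the groups overlapped in the total. Sums are weighted toward abundant genes.

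**Figure D2:**
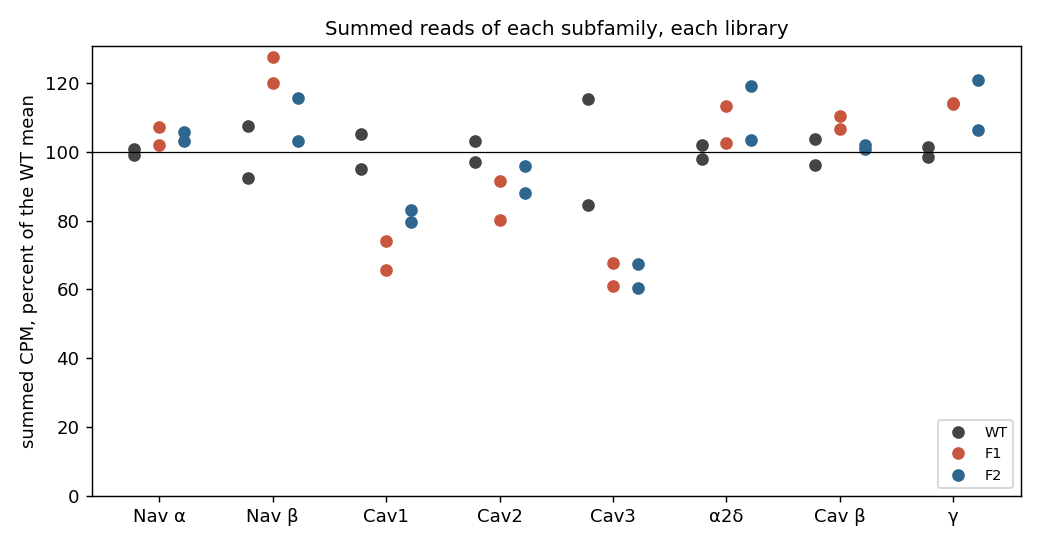
Summed CPM of each subfamily in each library, as percent of the mean of the 2 WT libraries (horizontal line at 100). Points are single libraries. The Cav1, Cav2 and Cav3 sums lie below both WT libraries in all F1 and F2 libraries. The sodium alpha, alpha2delta and gamma sums lie above both WT libraries in all of them. The sodium beta and calcium beta sums overlap WT in F2.

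**Figure D3:**
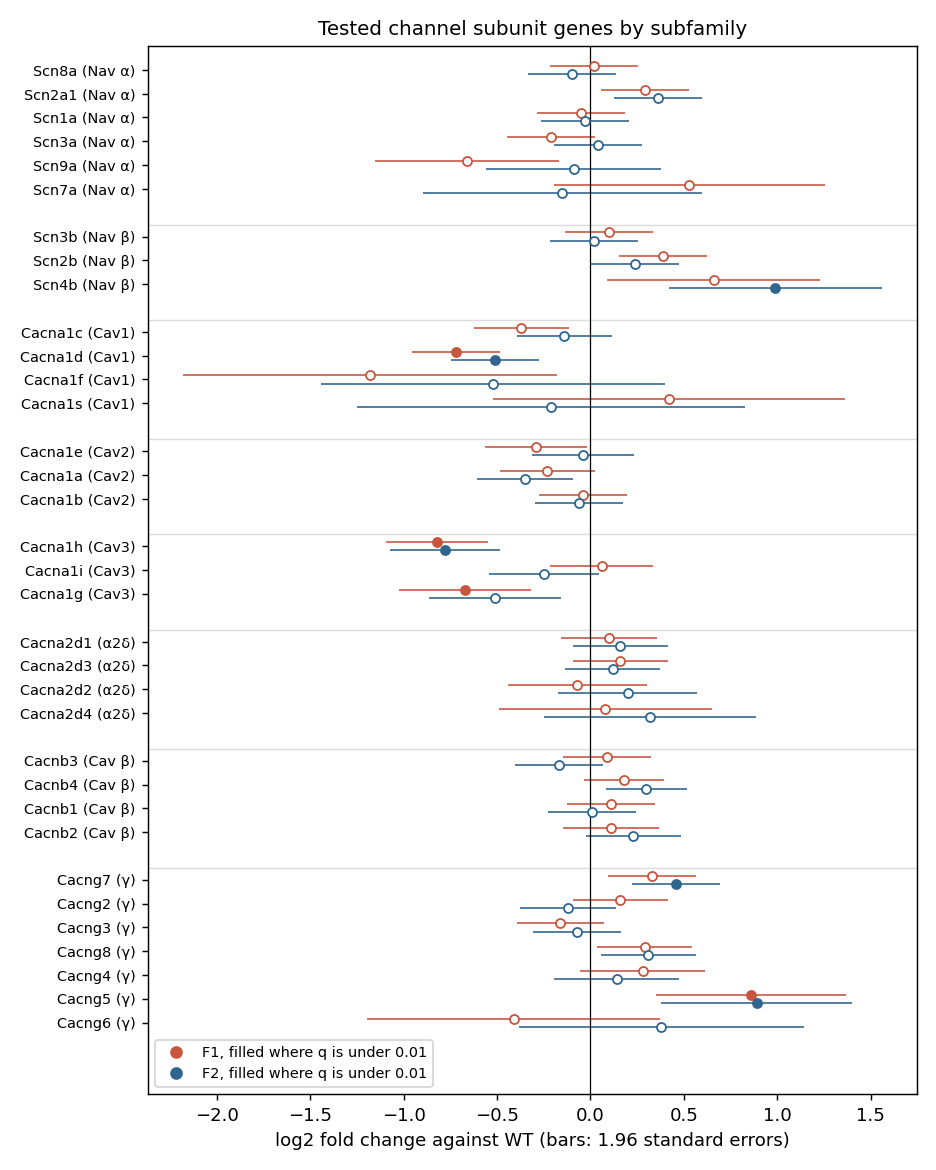
Log2 fold change against WT of tested members by subfamily, with 95% intervals from the standard error. Filled points passed q under 0.01 by edgeR's exact test. The filled points on the left are calcium alpha1 genes, and those on the right are beta and gamma genes.

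Cacna1h encodes Cav3.2, a T-type pore that opens near the resting potential, and lies on chromosome 17 from 25511230 to 25570728 (mm9, as for all gene positions here; protein-coding). Its level was 349 and 254 CPM in WT, 177 and 164 CPM in F1, and 172 and 180 CPM in F2. Both WT libraries lay above all others and differed from each other more than the F1 or F2 libraries did. Against WT, the log2 fold change (with its standard error) was -0.82 (0.14, adjusted p = 7.8e-07 by edgeR's exact test) in F1 and -0.78 (0.15, adjusted p = 3.92e-06 by the same exact test) in F2. For F2 against F1 the difference was 0.05 (adjusted p = 1 by edgeR's exact test). Without WT replicate 1 the change was -0.57 in F1 and -0.52 in F2 (adjusted p = 0.00171 and 0.00598 by edgeR's exact test), the largest adjusted p-values with any library left out, so both calls held. Cacna1h provided 70.2% of the Cav3 RPKM in WT, 61.7% in F1 and 64.2% in F2.

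Cacna1g (Cav3.1), on chromosome 11 from 94269705 to 94335414, had 80.9 and 55.4 CPM in WT, 45 and 40.6 CPM in F1, and 40.9 and 55.1 CPM in F2. Both F1 libraries lay below WT, while F2 replicate 2 nearly equalled WT replicate 2. The change was -0.67 (0.18, adjusted p = 0.00275 by edgeR's exact test) in F1 and -0.51 (0.18, adjusted p = 0.0313) in F2, and F2 and F1 were not shown to differ (0.17, adjusted p = 0.952). The F1 call was lost without WT replicate 1 (-0.37), F1 replicate 1 (-0.73) or F1 replicate 2 (-0.59), and the F2 change passed without WT replicate 2 (-0.74). The remaining T-type gene, Cacna1i, made up 14.4% of the Cav3 RPKM in WT, 23.1% in F1 and 18.9% in F2, while its own log2 fold changes were 0.06 and -0.25, neither past the threshold.

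Cacna1d encodes Cav1.3, an L-type pore that activates at more negative voltages than Cav1.2, on chromosome 14 from 30853135 to 31304342. It had 86 and 78.4 CPM in WT, 49.4 and 50.1 CPM in F1, and 59.8 and 55.8 CPM in F2. The 2 libraries of each group lay close together, and WT did not overlap F1 or F2. The change was -0.72 (0.12, adjusted p = 6.96e-08 by edgeR's exact test) in F1 and -0.51 (0.12, adjusted p = 0.000349 by the same test) in F2, with 0.22 (adjusted p = 0.644) for F2 against F1. Its F1 call held without any single library, and its F2 call was lost without WT replicate 1 (-0.43), F2 replicate 1 (-0.55) or F2 replicate 2 (-0.45). Cacna1c, the more abundant L-type gene (chromosome 6 from 118542314 to 119146249), had 99.2 and 89 CPM in WT, 65.7 and 80 CPM in F1, and 86.1 and 84.5 CPM in F2. All F1 and F2 libraries lay below WT, but the changes of -0.37 (0.13, adjusted p = 0.0244 by edgeR's exact test) and -0.14 (0.13, adjusted p = 0.48) did not pass. Without F1 replicate 2 the F1 change of Cacna1c passed (-0.51). Cacna1d made up 44.9% of the Cav1 RPKM in WT, 39% in F1 and 38.7% in F2.

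The RefSeq promoter table on GRCm38.p6 held 2 start sites for Cacna1d. The 250 bases before each are shown, 5′ to 3′ on the minus strand, since Cacna1d is the called pore gene with an entry there and its starts differ in composition. Capitals mark CCAAT boxes (CCAAT or ATTGG) and GC boxes (GGGCGG or CCGCCC), on either strand, where neighbouring GC boxes share letters. The window chr14:30491157-30491406 has 39.6% GC, 2 CpG and 2 TATA boxes (TATAAA), and chr14:30353487-30353736 has 86.4% GC, 50 CpG and 5 GC boxes. The counts are per gene and do not separate the starts.
Cacna1d upstream start: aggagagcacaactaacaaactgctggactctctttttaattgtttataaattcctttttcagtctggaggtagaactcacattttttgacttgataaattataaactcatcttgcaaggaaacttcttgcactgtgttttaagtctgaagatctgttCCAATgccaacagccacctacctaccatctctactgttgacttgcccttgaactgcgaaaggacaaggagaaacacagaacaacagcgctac
Cacna1d downstream start: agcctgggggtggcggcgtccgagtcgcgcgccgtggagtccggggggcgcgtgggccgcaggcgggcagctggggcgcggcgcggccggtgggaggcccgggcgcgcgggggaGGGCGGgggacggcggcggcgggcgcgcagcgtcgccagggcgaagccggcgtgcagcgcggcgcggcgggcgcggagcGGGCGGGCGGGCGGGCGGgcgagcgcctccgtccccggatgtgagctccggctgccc

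For the Cav2 class, Cacna1e (chromosome 1 from 156239649 to 156573049) is the most abundant gene. It had 290 and 282 CPM in WT, 209 and 259 CPM in F1, and 310 and 247 CPM in F2. The F1 libraries lay below WT and the F2 libraries on both sides of it, and neither change passed (-0.29, 95% interval -0.57 to -0.01, in F1, and -0.04, interval -0.32 to 0.24, in F2). All 3 Cav2 genes had negative log2 fold changes in both generations, down to -0.35, and none was called.

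Among the accessory genes, Cacng7 (TARP gamma-7, chromosome 7 from 3333055 to 3367810) is the gamma gene with the most reads. Its level was 97.3 and 97.3 CPM in WT, 125 and 120 CPM in F1, and 124 and 143 CPM in F2. Every F1 and F2 library lay above WT. The change was 0.33 (0.12, adjusted p = 0.0332 by edgeR's exact test) in F1 and 0.46 (0.12, adjusted p = 0.00206 by the same test) in F2. The difference between F2 and F1 was 0.12 (adjusted p = 0.928 by edgeR's exact test). The F2 call was lost without WT replicate 1 (0.46), WT replicate 2 (0.46) or F2 replicate 2 (0.35).

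Cacng5 (TARP gamma-5, chromosome 11 from 107735919 to 107776369) is low in this tissue. It had 5.44 and 5.35 CPM in WT, 7.33 and 12.3 CPM in F1, and 8.75 and 11.2 CPM in F2. The groups did not overlap with WT, while the 2 F1 libraries differed widely. The change was 0.86 (0.26, adjusted p = 0.00748 by edgeR's exact test) in F1 and 0.89 (0.26, adjusted p = 0.00593 by the same test) in F2. Without F1 replicate 2 the F1 change was 0.45, and without F2 replicate 2 the F2 change was 0.70, and neither passed. The F1 call was also lost without either WT or either F2 library (0.86 to 0.88), and the F2 call without either WT library or F2 replicate 1 (0.88 to 1.06). For the other gamma genes the log2 fold changes lay between -0.41 and 0.29 (F1) or between -0.12 and 0.38 (F2), none called. They include stargazin (Cacng2) and gamma-8 (Cacng8), the hippocampal TARP, which lies 26.8 kb from Cacng7.

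Scn4b, the beta4 subunit, which takes part in resurgent sodium current (chromosome 9 from 44946520 to 44962235), had 7.77 and 6.48 CPM in WT, 7.82 and 14.7 CPM in F1, and 11 and 17.4 CPM in F2. Replicate 2 was the higher library in F1 and F2, and F1 replicate 1 lay barely above WT. The change was 0.66 (0.29, adjusted p = 0.0912 by edgeR's exact test) in F1 and 0.99 (0.29, adjusted p = 0.00659 by the same test) in F2. The F2 call was lost without F2 replicate 2 (0.63), WT replicate 1 (1.14) or WT replicate 2 (0.88), and the F1 change passed without F1 replicate 1 (1.05). The granule cell marker Dsp was also highest in the second F1 and F2 libraries. It had 66.8 and 42.5 CPM in WT, 61.9 and 115 CPM in F1, and 66.4 and 104 CPM in F2. Of the other granule cell markers, Lct was likewise higher in replicate 2 of F1 and F2. Prox1, Calb1, C1ql2 and Tdo2 were instead higher in replicate 1 of F2. The part of these markers in the Scn4b and Cacng5 values was not tested. Scn3b (beta3, chromosome 9 from 40076801 to 40099203), the beta gene with the most reads, had 375 and 331 CPM in WT, 355 and 404 CPM in F1, and 348 and 369 CPM in F2. These groups overlapped, with log2 fold changes of 0.10 (95% interval -0.14 to 0.35) and 0.02 (-0.22 to 0.26).

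**Figure D4:**
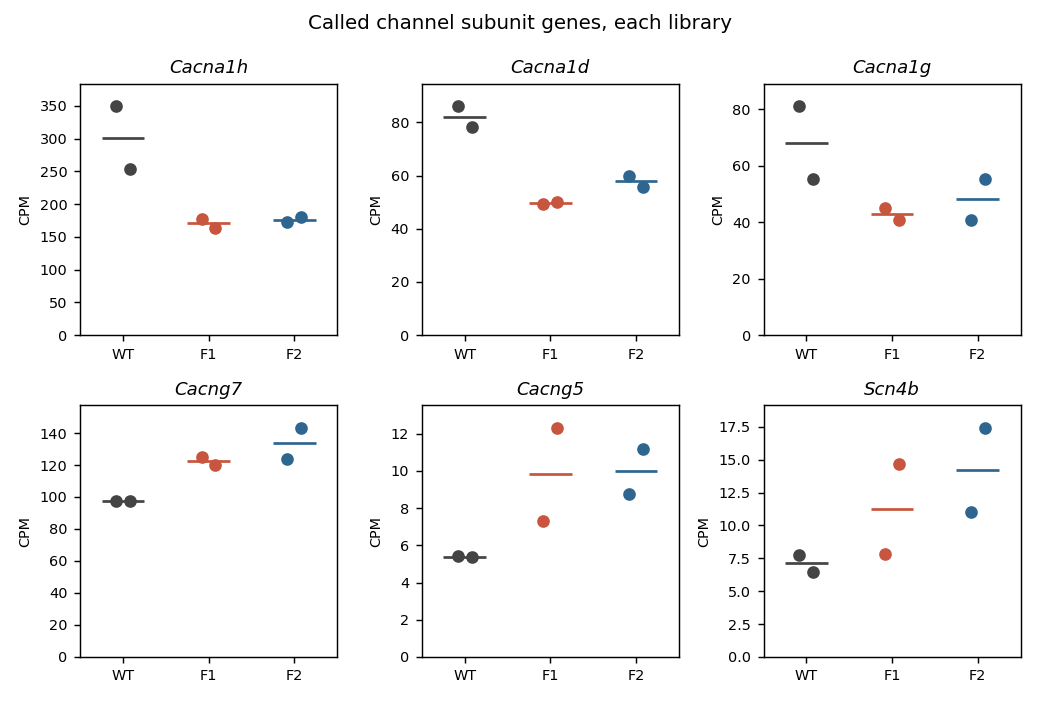
CPM in each library of members called in F1 or F2. Points are single libraries and lines are means of 2. Cacna1h, Cacna1d and Cacna1g lie higher in WT, and Cacng7, Cacng5 and Scn4b lie lower in WT than in F1 and F2.

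Promoter windows of the accessory genes called that have an entry in the same table are given likewise, with the same marking, because these genes were called higher. Cacng7 is at chr7:3332575-3332824 (plus strand, 58% GC), Scn4b at chr9:45138374-45138623 (plus strand, 66% GC), and the CpG-richer of the 2 Cacng5 windows at chr11:107915056-107915305 (minus strand, 62% GC). Each holds a CCAAT box, and Cacng7 and Cacng5 hold 1 and 2 GC boxes. In all, 30 of the 40 members matched the table, 1 under another symbol, with 41 windows. A CCAAT box was in 24.4% of the members' windows and in 33.8% of all 32851 windows, a GC box in 36.6% and 32.7%, a TATA box in 4.88% and 7.59%, and a cyclic AMP response motif (TGACG or CGTCA) in 14.6% and 17.8%. The windows had a median GC content of 56.8% against 52.4% in all. A match is a match of letters and nothing more.
Cacng7: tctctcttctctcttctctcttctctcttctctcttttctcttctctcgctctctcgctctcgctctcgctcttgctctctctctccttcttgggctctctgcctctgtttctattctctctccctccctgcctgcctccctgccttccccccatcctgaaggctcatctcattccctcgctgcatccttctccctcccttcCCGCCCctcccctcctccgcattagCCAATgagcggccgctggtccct
Scn4b: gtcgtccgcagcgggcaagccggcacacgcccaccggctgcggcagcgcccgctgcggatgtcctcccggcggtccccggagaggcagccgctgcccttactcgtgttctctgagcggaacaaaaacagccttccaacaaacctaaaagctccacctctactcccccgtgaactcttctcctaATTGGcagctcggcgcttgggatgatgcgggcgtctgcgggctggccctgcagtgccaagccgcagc
Cacng5: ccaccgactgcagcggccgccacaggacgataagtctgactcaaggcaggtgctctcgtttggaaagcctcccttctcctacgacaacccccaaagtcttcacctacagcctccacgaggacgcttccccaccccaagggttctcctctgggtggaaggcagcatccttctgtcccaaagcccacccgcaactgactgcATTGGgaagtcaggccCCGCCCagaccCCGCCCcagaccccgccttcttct

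The remaining members gave no call. Scn8a (chromosome 15 from 100785829 to 100876360), at 381 and 347 CPM in WT, 362 and 376 CPM in F1, and 328 and 350 CPM in F2, had overlapping groups and log2 fold changes of 0.02 (95% interval -0.21 to 0.25) and -0.10 (-0.33 to 0.13). Scn2a1 made up 31.7% of the sodium alpha RPKM in WT, 36.5% in F1 and 38.5% in F2, and its F1 and F2 libraries lay above WT. Cacna2d1 (chromosome 5 from 15440509 to 15880329) encodes an alpha2delta subunit that binds gabapentin. It had 243 and 258 CPM in WT, 260 and 278 CPM in F1, and 306 and 255 CPM in F2. Its changes were 0.10 (-0.14 to 0.35) and 0.16 (-0.08 to 0.41). Its F2 libraries lay on both sides of the higher WT library. Cacnb3, on chromosome 15 from 98462651 to 98474961, had 295 and 255 CPM in WT, 306 and 281 CPM in F1, and 236 and 254 CPM in F2. F1 overlapped with WT and F2 lay just below it, and the changes of 0.09 (-0.15 to 0.33) and -0.17 (-0.41 to 0.07) did not pass.

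For members whose groups of 2 libraries do not overlap, 14 lay above and 9 below WT in F1, or 63.9% of 36 against 60.4% of all tested genes, and 10 lay above and 7 below in F2, or 47.2% against 63%. Between F2 and F1 no member was called by edgeR's exact test, where 0.74% of all genes were. At an unadjusted p under 0.05 there were 6 members between F2 and F1 (16.7%, against 8.64% of all genes tested), among them Cacna1i, Cacnb3, Cacng2, Scn3a and Scn9a, and the quasi-likelihood test also called none. The median absolute log2 fold change of the members was 0.28 in F1, 0.21 in F2 and 0.16 between F2 and F1, beside 0.25, 0.26 and 0.14 over all genes tested.

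The calls depended on the test and threshold. With edgeR's quasi-likelihood test 2 members were called in each generation, Cacna1d and Cacna1h, where 5.91% of all genes were called in F1 and 5.72% in F2. At q under 0.05 the exact test called 9 members in F1 and 9 in F2, against 20.8% and 20.7% of all genes. The additions were Cacna1c, Cacng7, Scn2b and Scn9a in F1, and Cacna1a, Cacna1g, Cacnb4 and Scn2a1 in F2. With an offset for GC content and exon length, a likelihood-ratio test called 9 members in F1 and 8 in F2, against 16.6% and 15.5% of all genes, 6 of them higher in each. Among all genes called, the share that was higher moved with that offset from 30.6% to 53.3% for F1, and for F2 from 32.3% to 48.7%. Cacna1h was called in both generations in all 15 alternatives that kept all libraries and the threshold, and Cacna1d in 15 of them in F1 and 14 in F2.

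Genes of proteins that bind these channels were counted in lists. None of 9 tested sodium channel and axon initial segment partners was called in F1 or F2, with 3 and 4 of them at an unadjusted p under 0.05, which 32.6% and 32.4% of all genes tested reached. Of 18 calcium channel partners, 2 were called higher in F1 and 2 in F2 and none lower, where 12.3% and 12% of all genes were called, 3.77% and 3.86% higher. Thbs2, a thrombospondin of the family that binds alpha2delta subunits, had 5.21 and 6.3 CPM in WT, 9.08 and 10.2 CPM in F1, and 11.2 and 8.39 CPM in F2 (log2 fold changes 0.75 and 0.77, adjusted p = 0.00574 and 0.00463 by edgeR's exact test). Stac2 was also called in F2 (0.63). Rem2, a small GTPase that inhibits calcium channels, was the only partner called between F2 and F1 (-1.15, adjusted p = 0.00215 by edgeR's exact test), at 15.2 and 15.1 CPM in F1 and 4.6 and 9.02 CPM in F2.

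Of the 4 genes of the NALCN sodium leak channel, Unc79 was lower (-0.58 in F1 and -0.54 in F2) and Fam155a higher (0.47 and 0.57), both called in each generation. The other genes of this list, the pore gene among them, were not called. Of all tested genes 12.3% were called in F1 and 12% in F2, 8.54% and 8.1% lower. Of 12 AMPA receptor subunits and partners of the gamma subunits, 2 were called in F1 and 3 in F2, all higher, beside the same all-gene shares of 3.77% and 3.86% higher. Dlg2, a synaptic scaffold, had log2 fold changes of 0.73 and 0.82, and Cnih3, an auxiliary subunit, of 0.43 and 0.54. Shisa9 was called in F2 only, with 0.36 in F1 and 0.89 in F2, and its difference between F2 and F1 did not pass (0.53, adjusted p = 0.235 by edgeR's exact test).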

How the data were processed

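Reads (single-end, 50 bp) were aligned by the authors to mm9 with TopHat (TopHat2 2.0.2 per the processing notes), and the deposited values are raw counts per gene from HTSeq in intersection-strict mode. Reads on several genes or beyond exons are not in them, so paralogous members may be undercounted, and antisense overlap cannot be told apart since no strand setting is given. The bisulfite samples were not analysed here. After filterByExpr and TMM normalization, groups were tested with the exact test of edgeR 4.0.16 (R 4.3.3), with common, then tagwise dispersion over the 3 groups (common dispersion 0.0113, a coefficient of variation of 10.6%). The paper's methods name edgeR and not the test. P-values were adjusted by Benjamini-Hochberg over 17421 genes, with q under 0.01 as threshold. Standard errors follow from counts and tagwise dispersion, and 95% intervals from them. Depth leaves little counting error, and 2 libraries per group limit precision. An exact permutation of 2 against 2 libraries cannot go below p = 0.333. Replicates were no duplicates (chi-square per degree of freedom 24.9, 19.2 and 22.9). Positions and exon lengths are from GENCODE M1. The fits were tested on simulated data. Alternatives were other edgeR tests, DESeq2 1.42.0, replicate blocks, other normalizations, filters, dispersion and threshold, a GC and length offset, and each library left out. A block with crossed F2 numbers was added after seeing the data.

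Values per library are given for members called in any comparison and for the member with most reads in each subfamily, and other members by range, count or level. Members, partner lists and marker lists were chosen with earlier results of these data known. Members named at q under 0.05, at unadjusted p, or in shares were chosen after their values were seen. A few genes within these rules go unnamed and are not plotted singly, though counts and sums include them.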

Additional observations from a re-analysis of the deposited data

How the results depend on the processing

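In F1, the main test called 5 members. The count was 2 with edgeR's quasi-likelihood test, 9 with the GC and length offset and 9 at q under 0.05. Leaving out any library, which leaves 1 in a group, lowered the count, as it lowered the share of all genes called. In F2, also 5, the count was 2 with the quasi-likelihood test, 8 with the offset and 9 at q under 0.05. Leaving out a WT or F2 library lowered the count, as it lowered the share of all genes called, and leaving out an F1 library lowered neither. Counts between F2 and F1 were 0 in all settings, and the remaining normalizations, filters and dispersion left both counts within 1.5 times. No called direction reversed: of the single-gene values 805 kept their side of the threshold, 44 lost and 9 gained a call. The values that kept their side include genes and comparisons without a call in the main test. Among them are all values between F2 and F1, which had no call to lose.

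Libraries with the same replicate number did not deviate in the same direction. Differences between replicates 1 and 2 had correlations across genes of -0.00862 (WT and F1), -0.0898 (WT and F2) and -0.23 (F1 and F2). For F1 and F2, libraries with unlike numbers thus tended weakly to deviate together. With the number as a block, the quasi-likelihood test called 2 members in F1 and 1 in F2, against 4.87% and 4.35% of all genes. The likelihood-ratio test with the block called 4 and 5, against 10% and 10.1%, and with the offset as well 8 and 6, against 13.6% and 12.7%. With the F2 numbers crossed in the block, added after seeing the data, the quasi-likelihood test called 4 and 3, against 7.69% and 8.29% of all genes. The likelihood-ratio test with the crossed block called 6 and 7, against 15.4% and 15.8%. The member counts thus moved with the share of all genes called. The causes of these differences were not tested.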
